A study of Homo sapiens with 13 samples.

Results

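The G1/S cyclins, cyclin-dependent kinases and E2F1 were followed with every probe that the array design names for CCND2, CCND3, CCNE1, CCNE2, CDK2, CDK4, CDK6, CDKN1B, RB1 and E2F1. These 10 genes, of 25940 gene names on the array, had 12 probes among the 34127 probes that are not controls. CCNE2 and CDKN1B had 2 probes each and the other genes 1. Total RNA came from CCRF-CEM (CEM), an established human line of T lineage acute lymphoblastic leukemia, and was hybridised with 1 colour (Cy3) to 13 Agilent 4x44K v2 arrays.

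The study asked how these cells respond to FK866, an inhibitor of the NAD salvage enzyme NAMPT, and how a resistant subline differs. Parental cells (CEM PA) were treated for 48 h with 5 nM FK866 (2 arrays) or left without the drug (mock, 3 arrays). CEM RES cells, resistant to 100 nM FK866, were given the same 5 nM for 48 h (4 arrays) or mock treatment (4 arrays). CEM RES was obtained by raising the FK866 concentration step by step and was, per the methods, kept in medium with 100 nM FK866, so its mock cells are not drug-naive, and it is 1 selected subline. The labels call the replicates biological, and the p-values measure only the spread between these arrays. In bulk RNA, fewer cells that express a gene and less RNA per cell cannot be told apart.

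Between 26457 and 33239 of 43118 spots per array were well above background, the flag that Feature Extraction sets for a spot clearly brighter than its surroundings. All 12 genes on a list of T lymphoblast markers, among them CD3D, CD7 and LCK, were well above background on every array of all 4 groups. The epithelial markers EPCAM and CDH1 were so on no array. Of 5 B cell markers, 3 or 4 were also well above background on every array of a group, 4 could be tested, and 2 of these were called lower between the lines without drug and 0 higher (limma). The part of such other differences between the lines in the results below was not tested. The CEM PA arrays were scanned in 2 sessions and the CEM RES arrays in another session of their own, so line and scan session cannot be told apart.

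Passage from G1 into S phase is governed by cyclins bound to their kinases. D-type cyclins with CDK4 or CDK6, then E-type cyclins with CDK2, phosphorylate the retinoblastoma protein, which otherwise holds E2F transcription factors inactive, and freed E2F1 drives genes of DNA synthesis, E-type cyclins and its own gene among them. CDKN1B encodes p27 (Kip1), which binds and inhibits cyclin E-CDK2 complexes and is abundant in resting lymphocytes.

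The largest difference between the lines was that of 1 CDKN1B probe, and the other probe of the gene did not share it, so both are shown first. The cause of their disagreement was not tested. Both match the plus strand of chromosome 12 in the hg19 coordinates of the array design, and their starts lie 3821 bases apart. The upstream probe (A_23_P204696, chr12:12871119-12871178, 1 spot) falls in protein-coding sequence. The downstream probe (A_24_P81841, chr12:12874940-12874999, 10 spots) lies towards the 3′ end of the transcript, and the first 30 of its 60 bases are given. The probes are written 5′ to 3′ as the array files hold them, with nothing capitalised because no shorter motif is at issue.
CDKN1B upstream probe: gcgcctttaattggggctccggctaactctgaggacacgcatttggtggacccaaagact
CDKN1B downstream probe, first 30 bases: agcacacttgtaggataagtgaaatggata

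E2F1 is shown with the start of its own gene, because the feedback of E2F factors on this promoter is the textbook link between the members. From the RefSeq promoter table (GRCh38.p14, 250 bases before to 50 after each start), 10 promoters of 7 of the 10 genes were taken. No promoter of CCND2, CCNE2 or CDK2 was among them, so the count for the members does not cover these genes. An E2F motif was searched on both strands as TTTCCCGC, TTTCGCGC, TTTGCCGC or TTTGGCGC. It was found in 1 of these 10 promoters, that of E2F1, and in 3.31% of all 35116 promoters of the table. The E2F1 promoter held 2 matches that do not overlap, beginning 33 and 20 bases before the start, the first of them on the opposite strand. The 120 bases before the start (chr20:33686386-33686505, minus strand) follow with both matches in capitals, as a description of the letters and not of binding.
E2F1 promoter: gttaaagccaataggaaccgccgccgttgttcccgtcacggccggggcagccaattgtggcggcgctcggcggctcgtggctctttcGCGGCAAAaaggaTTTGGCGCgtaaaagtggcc

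Levels are normalized log2 signals, in which 1 unit is a doubling, and differences are tested with limma in 1 model of the 4 groups, adjusted by Benjamini-Hochberg over all 22754 tested probes. A difference is called at an adjusted p under 0.05. Of the 12 probes, 11 were well above background on all 13 arrays and were tested, and they cover 9 of the 10 genes. Levels of different genes are not compared.

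**Figure D1:**
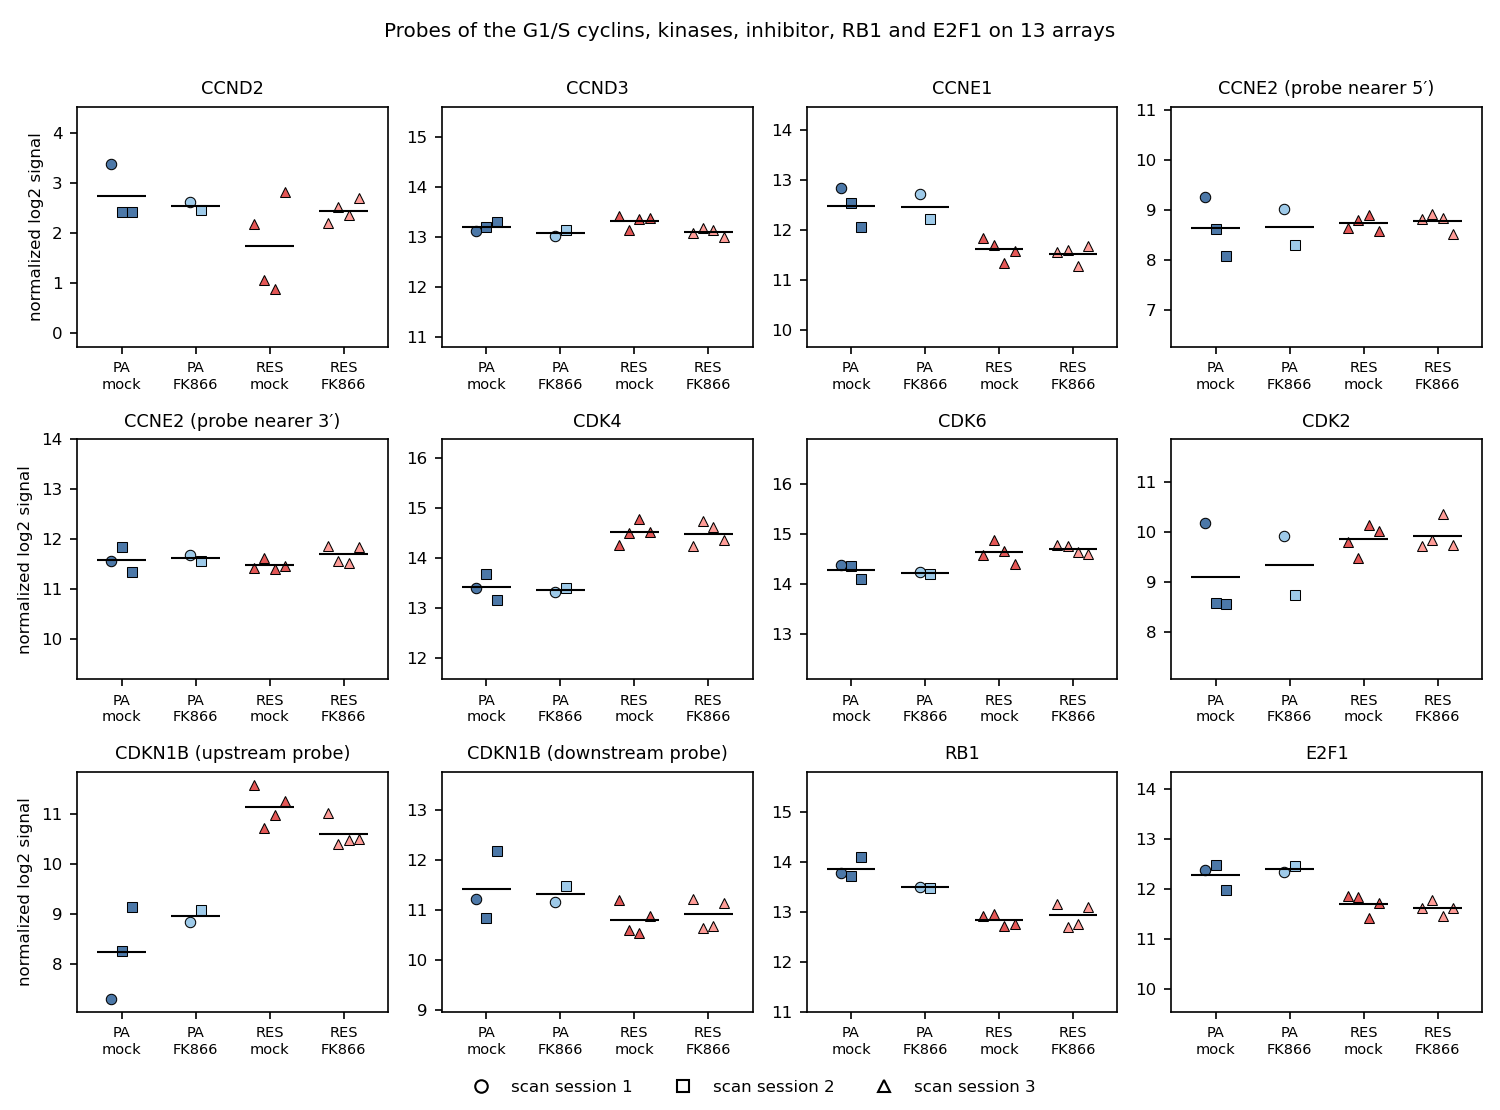
Normalized log2 signal (y axis) of each of the 12 probes in the 4 groups (x axis), 1 point per array, with the group mean as a bar and the marker shape for the scan session. Every panel spans the same range of log2 units. CDK4 and the upstream CDKN1B probe sit higher, and CCNE1, RB1 and E2F1 lower, on all 8 CEM RES arrays than on all 5 CEM PA arrays, while the CDK2 points of CEM PA split by scan session.

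Without a block for the replicate number, 0 members passed the threshold for 5 nM FK866 in either line. With that block, the upstream CDKN1B probe was called in CEM PA (1.18, adjusted p = 0.0304, limma), where the calls over all probes went from 347 to 1218, and 0 members were called in CEM RES. CEM PA mock replicate 3 has no FK866 partner, so it does not enter this estimate. In this probe it read 9.15, above both FK866 arrays (8.84 and 9.10). Leaving that array out without a block called 0 members in CEM PA. Without the block, in CEM PA 0 of 9 tested genes were called, where 1.53% of all tested probes and 1.9% of genes were called, and 0 of 11 member probes had an unadjusted p under 0.05, against 14.4% of all probes. In CEM RES, 0 of 9 genes were called, where 0% of all probes and 0% of genes were called, and 0 of 11 member probes had an unadjusted p under 0.05, against 5.15% of all probes. The groups of 1 member probe did not overlap in CEM PA and those of 0 in CEM RES, where 34.8% and 2.9% of all probes had no overlap. The double threshold of the methods (unadjusted p under 0.05 and an absolute log2 difference over 0.75) was passed by 0 member probes in both lines, where 6.7% of all probes passed it in CEM PA and 1.3% in CEM RES.

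The differences of the 11 probes between FK866 and mock ran from -0.37 (RB1) to 0.73 (upstream CDKN1B probe) in CEM PA, with a median of -0.02 beside -0.0029 over all probes. In CEM RES they ran from -0.53 (upstream CDKN1B probe) to 0.22 (the CCNE2 probe nearer the 3′ end), with a median of 0.04 beside -0.02 over all probes. The 95% interval of the difference lay within 1 log2 unit of 0 for 9 of the 11 probes in CEM PA and for 10 of 11 in CEM RES. The exceptions were CDK2 (-0.78 to 1.24) and the upstream CDKN1B probe (-0.19 to 1.64) in CEM PA, whose intervals hold a doubling but no halving, and the upstream CDKN1B probe in CEM RES (-1.25 to 0.18), whose interval holds a halving but no doubling.

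**Figure D2:**
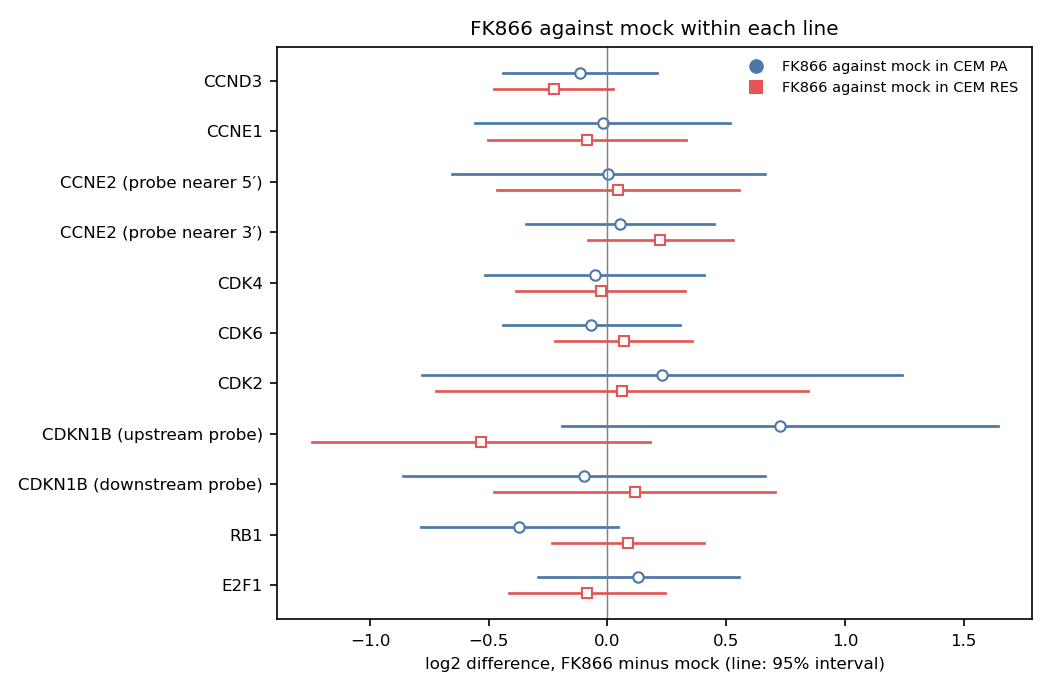
Log2 difference between FK866 and mock (x axis) for the 11 tested probes (y axis) in CEM PA (circles) and CEM RES (squares), with lines for the 95% interval from limma. All symbols are open because no adjusted p was under 0.05 without a replicate block, and in both lines the upstream CDKN1B probe has the point farthest from 0, at 0.73 and -0.53.

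Between the lines, CDK4 and the coding end of CDKN1B were higher and CCNE1, RB1 and E2F1 lower in CEM RES, with and without the drug. Without the drug 5 of 9 tested genes were called (CDK4, CDKN1B, CCNE1, RB1, E2F1), and with it 6 of 9, CDK6 being the added one. Without the drug 5 of 11 member probes were called (45.5%) against 47.6% of all probes, a share near that of the array, and with it 6 of 11 (54.5%) against 36%. By genes with at least 1 called probe, the array had 53% without and 40.7% with FK866. The median difference of the 11 probes was 0.08 without and 0.07 with FK866, beside 0.04 and 0.06 over all probes. Both line comparisons use different arrays, but all arrays of a line share its cells and, in CEM RES, its scan session. When the arrays were instead brought to a common 75th percentile, the median over all probes moved to 0.17 and 0.20, and no called member changed direction.

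**Figure D3:**
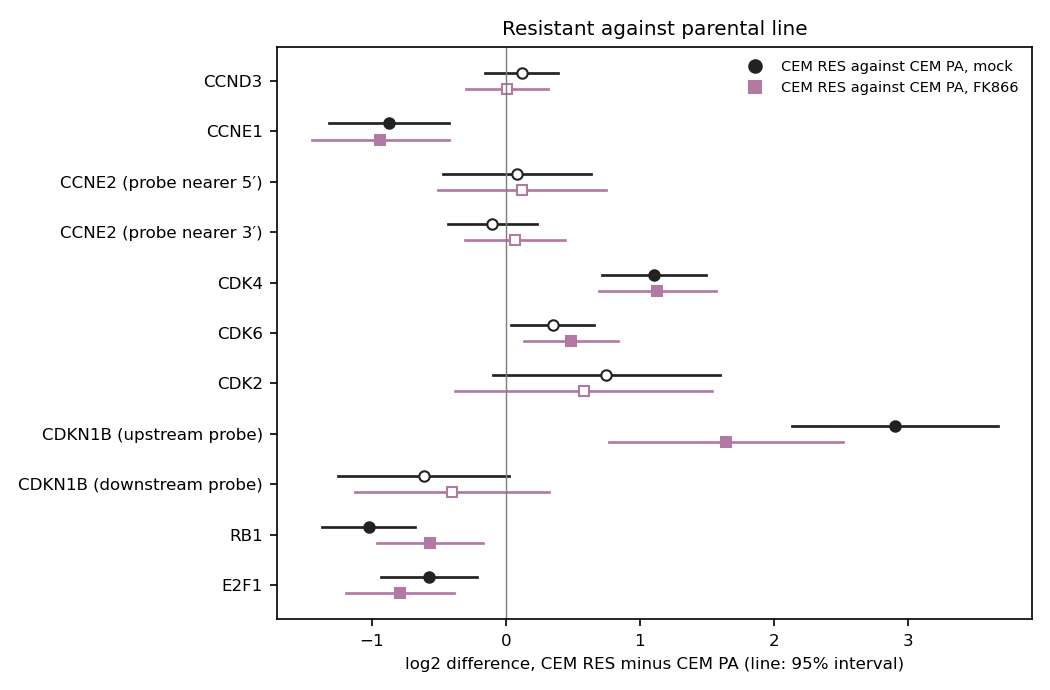
Log2 difference between CEM RES and CEM PA (x axis) for the 11 tested probes (y axis) on mock arrays (circles) and FK866 arrays (squares), with lines for the 95% interval from limma. Filled symbols have an adjusted p under 0.05. The upstream CDKN1B probe lies at 2.90 and 1.64, the downstream one at -0.61 and -0.40.

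Among the D-type cyclins, which are the mitogen-sensing partners of CDK4 and CDK6, CCND3 was bright and level and CCND2 was too close to background to be tested. The CCND3 probe (chr6:41903193-41903252, minus strand) read 13.13, 13.21 and 13.30 on the mock CEM PA arrays, 13.03 and 13.16 with FK866, 13.43, 13.15, 13.37 and 13.38 on the mock CEM RES arrays and 13.08, 13.19, 13.15 and 13.0005 with FK866. All 4 groups overlapped. CEM RES and CEM PA differed by 0.12 ± 0.12 (SE) without FK866, with a 95% interval from -0.15 to 0.39, and by 0.01 ± 0.14 with it, with an interval from -0.30 to 0.32, so a doubling lies outside both intervals.

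CCND2 (chr12:4414040-4414099, plus strand) was well above background on 0 of 3 mock and 0 of 2 FK866 arrays of CEM PA, and on 1 of 4 mock and 1 of 4 FK866 arrays of CEM RES. Its normalized log2 signal lay between 0.89 and 3.38 over the 13 arrays. It was not tested, and no fold is given. CCND1, the D-type cyclin that completes the family, was well above background on 0 of 13 arrays, so CCND3 had the only D-type cyclin signal that could be compared.

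Of the E-type cyclins, the activators of CDK2 that are themselves E2F target genes, CCNE1 was lower in CEM RES and CCNE2 was not called. CCNE1 (chr19:30315106-30315165, plus strand) read 12.84, 12.54 and 12.06 in mock CEM PA and 12.71 and 12.21 with FK866. In CEM RES it read 11.84, 11.69, 11.34 and 11.57 without and 11.55, 11.59, 11.28 and 11.67 with the drug. Every CEM RES array was below every CEM PA array. The difference was -0.87 ± 0.21 (SE), a 1.83-fold lower signal, without FK866 (adjusted p = 0.00444, limma) and -0.94 ± 0.23, 1.92-fold lower, with it (adjusted p = 0.00876, limma). Within CEM PA the session 1 arrays were higher than those of session 2 by 0.54 without and 0.50 with FK866. Without CEM PA FK866 replicate 1, the array of session 1, the difference under the drug was -0.69 (adjusted p = 0.13).

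Both CCNE2 probes overlapped between the lines. The probe nearer the 5′ end (chr8:95894361-95894420, minus strand) ran from 8.07 to 9.25 in CEM PA and from 8.52 to 8.92 in CEM RES, and its session 1 arrays of CEM PA exceeded those of session 2 by 0.91 without and 0.71 with FK866. The probe nearer the 3′ end (chr8:95892618-95892677, minus strand) ran from 11.34 to 11.84 in CEM PA and from 11.40 to 11.86 in CEM RES. Differences between the lines without FK866 were 0.08 ± 0.25 and -0.10 ± 0.15 (SE), with 95% intervals from -0.47 to 0.63 and from -0.43 to 0.23.

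CDK4, the kinase partner of D-type cyclins, was higher in CEM RES, with estimates slightly over a doubling. Its probe (chr12:58142263-58142322, minus strand) read 13.39, 13.66 and 13.16 in mock CEM PA and 13.30 and 13.39 with FK866. It read 14.25, 14.50, 14.78 and 14.51 in mock CEM RES and 14.22, 14.72, 14.62 and 14.36 with FK866. No CEM RES array came as low as the highest CEM PA array. The difference was 1.11 ± 0.18 (SE), or 2.15-fold, without FK866 (adjusted p = 0.000364, limma) and 1.13 ± 0.20, or 2.19-fold, with it (adjusted p = 0.00122, limma). Leaving out 1 array moved the mock difference between 0.98 and 1.235, so it was not always above a doubling. The scan sessions of CEM PA differed by 0.09 or less in this probe.

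CDK6, the kinase that shares these cyclins and is prominent in T lineage cells, showed a smaller difference of the same sign. It read 14.39, 14.36 and 14.11 in mock CEM PA, 14.24 and 14.20 with FK866, 14.58, 14.89, 14.66 and 14.41 in mock CEM RES and 14.79, 14.77, 14.65 and 14.60 with FK866 (chr7:92234443-92234502, minus strand). The lines did not overlap, although the lowest CEM RES array (14.41) was close to the highest CEM PA array (14.39). The difference was 0.35 ± 0.14 (SE) without FK866 (adjusted p = 0.0618, limma) and 0.49 ± 0.16 with it (adjusted p = 0.0344, limma). The call under FK866 was lost in 9 of the 27 recomputations, with the scan session as a random block among them (adjusted p = 0.0512). The mock difference was called in 4 of 27, with adjusted p-values from 0.00877 (normexp background) to 0.0471 (scaling to the 75th percentile).

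CDK2, the partner of cyclins E and A, had a wider gap between the scan sessions of CEM PA than between the lines. Its probe (chr12:56365789-56365848, plus strand) read 10.18 in session 1 and 8.57 and 8.55 in session 2 on the mock CEM PA arrays, and 9.91 in session 1 and 8.74 in session 2 with FK866. In CEM RES it read 9.79, 9.47, 10.13 and 10.01 without and 9.72, 9.83, 10.36 and 9.75 with the drug. The arrays of session 1 lay among those of CEM RES and the arrays of session 2 below all of them. The gap between the sessions was 1.61 on mock arrays and 1.17 on FK866 arrays, with 1 session 1 array in each. The 10 spots of the probe on an array had an SD of at most 0.11, which measures the reading of an array and not the spread between samples. The line difference was 0.75 ± 0.39 (SE) without FK866 (95% interval from -0.10 to 1.60, adjusted p = 0.131, limma). Without CEM PA mock replicate 1, the array of session 1, it was 1.29 (adjusted p = 0.00652). With array quality weights on all 13 arrays it was also called, at 1.08 (adjusted p = 0.0227, limma).

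CDKN1B, the inhibitor, was higher in CEM RES at its upstream probe and was not called at its downstream probe. The upstream probe read 7.31, 8.26 and 9.15 in mock CEM PA and 8.84 and 9.10 with FK866. In CEM RES it read 11.59, 10.72, 11.00 and 11.27 without and 11.04, 10.41, 10.49 and 10.51 with the drug. Every CEM RES array exceeded every CEM PA array, and 1.26 separated the lowest from the highest of them. Within CEM PA the session 1 array was below those of session 2, by a log2 difference of -1.40 without and -0.26 with FK866. The difference was 2.90 ± 0.35 (SE), or 7.48-fold, without FK866 (adjusted p = 5.49e-05, limma) and 1.64 ± 0.40, or 3.12-fold, with it (adjusted p = 0.00757, limma). Without CEM PA FK866 replicate 1 the latter was 1.51 (adjusted p = 0.0713).

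The downstream CDKN1B probe read 11.21, 10.84 and 12.19 in mock CEM PA, 11.15 and 11.48 with FK866, 11.19, 10.59, 10.54 and 10.88 in mock CEM RES and 11.22, 10.64, 10.67 and 11.14 with FK866. The lines overlapped. The difference had the opposite sign and was not called, at -0.61 ± 0.29 (SE) without FK866 (95% interval from -1.25 to 0.03, adjusted p = 0.105, limma) and -0.40 ± 0.33 with it (adjusted p = 0.375, limma). Leaving out 1 array moved the first value between -0.90 (without CEM PA mock replicate 2, adjusted p = 0.0307) and -0.22 (without CEM PA mock replicate 3). Its 10 spots had a median SD of 0.05 on an array, and the lone spot of the upstream probe offers no such check.

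As a description, both probes were also read within each array, as the upstream minus the downstream log2 signal. Its value on an array depends on the brightness of each probe, so only its change between groups is read. This difference was -3.90, -2.58 and -3.04 on the mock CEM PA arrays and -2.31 and -2.38 with FK866. It was 0.40, 0.13, 0.45 and 0.39 on the mock CEM RES arrays and -0.18, -0.23, -0.19 and -0.62 with FK866. The 4 groups did not overlap. The mean of CEM RES was above that of CEM PA by 3.51 without FK866 and by 2.04 with it. It fell by 0.65 with FK866 within CEM RES and was 0.82 higher with FK866 within CEM PA. No test is given, since the quantity was formed because the probes disagreed.

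Probe disagreement was common on this array but seldom this wide. Of 4088 genes with more than 1 tested probe, 384 (9.39%) had probes called in opposite directions between the lines without FK866, and the median gap between the highest and lowest probe difference of a gene was 0.74. The gap of CDKN1B was 3.51, and 1.3% of these genes had a larger one. Under FK866 its gap was 2.04, and 8.34% had a larger one. The CCNE2 gap was 0.18 without FK866. A value for the gene as a whole depended on the probe, since the CDKN1B probe with the highest mean signal, which an alternative takes for the gene, is the downstream one and gave no call.

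**Figure D4:**
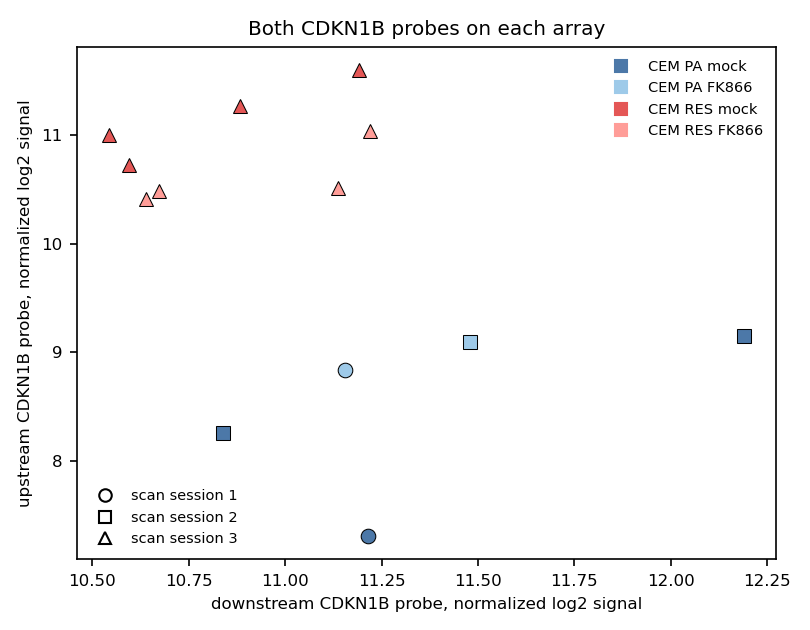
Normalized log2 signal of the upstream (y axis) against the downstream (x axis) CDKN1B probe, 1 point per array, coloured by group and shaped by scan session. The 8 CEM RES arrays lie between 10.41 and 11.59 on the y axis and the 5 CEM PA arrays between 7.31 and 9.15, while on the x axis the lines overlap.

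The upstream CDKN1B probe had the largest difference between FK866 and mock among the 11 probes in both lines, though RB1 in CEM PA and CCND3 in CEM RES had lower p-values. It was 0.73 ± 0.42 (SE) higher in CEM PA (adjusted p = 0.483, limma) and 0.53 ± 0.33 lower in CEM RES (adjusted p = 0.95). The difference of the responses, CEM RES minus CEM PA, was -1.26 ± 0.53 (unadjusted p = 0.0359, adjusted p = 0.369, limma). Of the 11 probes 0 were called in this test of the difference, where 0.413% of all probes and 0.534% of genes were called. This probe alone had an unadjusted p under 0.05, as did 12.1% of all probes. With replicate numbers entered as a block, the difference of the responses was -1.71 (adjusted p = 0.0349), past the threshold as the CEM PA value is. Within CEM PA the response was 1.53 in scan session 1 and 0.39 in session 2, with 1 FK866 array in each, and within CEM RES it was -0.37 and -0.70 on its 2 slides. The block rests on 2 pairs of arrays in CEM PA, and mock replicate 3, which has no partner, does not enter it.

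RB1, which encodes the pocket protein that restrains E2F factors, was lower in CEM RES. Its probe (chr13:49055845-49055904, plus strand, 10 spots) read 13.76, 13.72 and 14.10 in mock CEM PA and 13.50 and 13.48 with FK866. In CEM RES it read 12.92, 12.96, 12.72 and 12.75 without and 13.15, 12.69, 12.74 and 13.10 with the drug. All CEM RES arrays lay below all CEM PA arrays. The difference was -1.02 ± 0.16 (SE), or 2.03-fold lower, without FK866 (adjusted p = 0.000302, limma) and -0.57 ± 0.18, or 1.48-fold lower, with it (adjusted p = 0.0285, limma). The second call stayed past the threshold in 22 of the 27 recomputations. It was lost without CEM RES FK866 replicate 2 (adjusted p = 0.0669, limma) or replicate 3 (adjusted p = 0.0661). A fit with only the groups compared lost it too (adjusted p = 0.057). Leaving out either CEM PA FK866 array also took it away, at -0.56 without replicate 1 and -0.57 without replicate 2, with 1 array left in that group. RB1 was the probe whose FK866 and mock arrays of CEM PA did not overlap, and its difference of -0.37 was not called (adjusted p = 0.412, limma).

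E2F1, the transcription factor at the end of this pathway, was also lower in CEM RES. Its probe (chr20:32263989-32264048, minus strand, 10 spots, hg19) read 12.38, 12.48 and 11.98 in mock CEM PA and 12.35 and 12.47 with FK866. In CEM RES it read 11.86, 11.84, 11.42 and 11.72 without and 11.63, 11.78, 11.46 and 11.62 with the drug. The lines did not overlap, and the lowest CEM PA array (11.98) was close to the highest CEM RES array (11.86). The difference was -0.57 ± 0.16 (SE), or 1.49-fold lower, without FK866 (adjusted p = 0.0123, limma), and -0.79 ± 0.19, or 1.73-fold lower, with it (adjusted p = 0.00615, limma). The call was lost without CEM PA mock replicate 2 in the first comparison (adjusted p = 0.0589) and without CEM PA FK866 replicate 2 in the second (adjusted p = 0.0586).

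Counted over arrays, 6 of the 11 probes had lines that did not overlap without FK866 (54.5%) and 6 with it (54.5%), where 48.8% and 57.8% of all probes did. These 6 probes were those of CCNE1, CDK4, CDK6, the coding end of CDKN1B, RB1 and E2F1 in both.

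The families around these members held differences of both signs. Of 34 tested probes for 26 of 29 other G1/S genes, 6 were called higher and 8 lower in mock CEM RES against mock CEM PA (41.2%), with a median difference of 0.19. The INK4 inhibitors of CDK4 and CDK6 gave CDKN2D -1.41 (adjusted p = 0.000187, limma), CDKN2C -0.70 (adjusted p = 0.0139) and, in the tested one of its 2 probes, CDKN2A 0.66 (adjusted p = 0.156). CDKN2B was well above background on 0 of 13 arrays. Of the other CIP/KIP inhibitors, CDKN1C was -2.76 (adjusted p = 0.000317, limma) and CDKN1A was too close to background to be tested.

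The other pocket proteins were not called, with RBL1 at -0.26 and 0.20 in its 2 probes and RBL2 at -0.06. Among the other E2F factors, E2F7 was called higher at 2.14 in 1 probe and was 0.27 in the other, and E2F5 was called higher at 1.19. E2F8 was called lower at -0.89. E2F3 was called in both directions, at -1.49 and 1.06 in its 2 probes. E2F6 was called at 0.79 in 1 of 3 probes, with -0.11 and 0.22 in the others, while E2F2 (-0.07) and E2F4 (0.30) were not called. Outside these families FBXW7, which encodes the ubiquitin ligase subunit that recognises cyclin E, was called lower at -1.25. Both cyclin A genes had a higher mean in mock CEM RES than in mock CEM PA. CCNA1 was called higher (1.45). Its signal was not well above background on 1 of the 3 mock CEM PA arrays. The probe of CCNA2, the other cyclin A gene, ran from 10.55 to 11.05 in mock CEM PA. In mock CEM RES the CCNA2 probe ran from 11.66 to 11.96, with a mean of 11.76, so these groups did not overlap.

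Genes that E2F factors are known to drive had no common sign. Of 25 tested probes for 20 such genes, 6 were called higher and 7 lower without FK866 (52%), with a median of -0.16. Called higher were the replicative helicase subunit MCM4 (1.20), 1 probe of the helicase subunit MCM7 (0.59, with 0.68 and adjusted p = 0.106 in its other probe) and 1 probe of UHRF1 (1.81). The other UHRF1 probe had the opposite sign and was not called (-0.40, adjusted p = 0.348, limma). Genes called lower included EZH2 (-0.82), the ribonucleotide reductase subunit RRM1 (-0.78) and MCM3 (-0.64). Of 18 tested probes for 14 genes of G2 and mitosis, 7 were called higher and 2 lower (50%), with a median of 0.42. MKI67, the proliferation marker, was called higher in all 3 probes at 0.54, 2.35 and 3.38, followed by the mitotic kinesin KIF11 (1.07), TTK (0.73) and FOXM1 (0.60). CCNB1 was called in both directions, at 0.60 and -0.64, and CCNB2 was lower at -0.46. Over all probes 24.9% were called higher and 22.7% lower in this comparison.

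FK866 in CEM PA called 1 of the 34 probes of the other G1/S genes (2.94%), beside 1.53% of all tested probes. The called gene was CCNH, the cyclin of the CDK-activating kinase, at 0.82 ± 0.18 (SE, adjusted p = 0.04, limma). This value was not recomputed under other settings. FK866 in CEM PA called 0 of 25 probes of the E2F target genes and 0 of 18 of the G2 and mitosis genes. In CEM RES it called 0 probes of these lists, where 0% of all tested probes were called.

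For each member the 2 genes with the most similar profile were sought by the root mean square difference of centred log2 signals over the 13 arrays. Among the closest were COASY (0.09) and FTSJD2 (0.09) for CCND3, MPST (0.12) for E2F1, and NPEPL1 (0.10) and ABCC5 (0.11) for RB1. CCNE1 was closest to PIGX (0.10) and BCR (0.11), CDK4 to ORC5 (0.10) and ZNF232 (0.10), and CDK6 to FAM54A (0.09) and PDHA1 (0.10). The CCNE2 probe nearer the 3′ end was closest to ZNF595 (0.12) and CRIP1 (0.12), and the downstream CDKN1B probe to GKAP1 (0.14) and SERTAD2 (0.15). CDK2 was closest to TPM3 (0.20) and PCNXL3 (0.20). These distances depend on the spread of the member's own profile, whose SD was 0.61 for CDK2 and 0.13 for CCND3. They are therefore not compared between members.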

How the data were processed

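The authors deposited, for each of the 13 arrays, the spot intensity written by Agilent Feature Extraction (version 10.7.7.1 per the labels), background-corrected and not normalized between arrays. The authors also deposited a log2 table, quantile normalized, which was used as an alternative. From the intensities, log2 was taken, outlier spots were set to missing, control spots removed, the arrays quantile normalized and the spots of a probe averaged. A probe was tested (22754 of 34127) when some group had it well above background on all its arrays, following the quantile normalization, removal of low signals and limma of the study's methods. The 4 groups were fitted in 1 model with limma 3.58.1 in R 4.3.3 without covariates, and p-values were adjusted by Benjamini-Hochberg. The fits were tested on simulated data. The simulated arrays were independent, without shared replicate or session effects, so they cannot show how the fits behave under such effects. Replicate numbers were taken to pair arrays within a line, because the deviations of same-numbered arrays from their group means correlated in all 6 pairs (0.20 to 0.47 across probes). Arrays with different numbers were not compared. In CEM PA same-numbered arrays also share a scan session, so a replicate effect and a session effect cannot be told apart there. With 2 FK866 arrays, whose deviations are equal and opposite, the 2 pairs of CEM PA are also not independent. Precision is limited by the number of arrays, since arrays give no counts.

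Scan session and slide came from the file headers. Positions are those of the array design (hg19), whose genome was not used here, so exons and untranslated regions are not stated for most probes. All 10 member names are current symbols. Named genes were the members, up to 4 called genes per list and direction in the mock line comparison with the largest difference, the INK4, CIP/KIP, pocket protein and E2F families, CCNH as the lone call of its kind (named after its value was seen), and the 2 nearest profiles of each member. Some genes that this rule names are not reported here. The members, lists and tests were chosen with earlier results of these data known.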

Additional observations from a re-analysis of the deposited data

Results flagged for a closer look

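One group of 4 arrays held a value far from the others. For the upstream CDKN1B probe in CEM RES with FK866, replicate 1 read 11.04 and the next array 10.51, and the gap was 0.838 of the range of the group, above the 95% limit of Dixon's test for 4 arrays. Of such groups 24 were examined, and chance marks about 1 in 20. The same replicate number was also the highest of mock CEM RES, at 11.59.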

How the results depend on the processing

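Each member value was recomputed under 14 alternatives and without each of the 13 arrays. The 11 called line differences kept their sign in all 293 recomputations and stayed past the threshold in 275. The 44 uncalled values passed it in 9 of 1151 and changed sign in 83. With the replicate block, 1 member was called for FK866 in CEM PA and 1 in the difference of responses (CDKN1B in both, against 0 without the block), and over all probes the calls went from 347 to 1218 and from 94 to 486. It changed no other count of called members. Over all settings, calls for FK866 in CEM PA ran from 3 of all probes, with only the groups compared in the fit, to 1410, with array quality weights, and calls in the difference of responses from 7 to 486. Under FK866, leaving out 1 array gave 2 to 6 called members between the lines, with 2 without CEM PA FK866 replicate 1 and 3 without replicate 2. The mock comparison gave 4 to 6. With the probe of the highest mean signal standing for its gene it gave 4, and with the mean of a gene's probes 5. A fit with only the groups compared is not possible for the difference of responses, which uses all groups. CCND2 is limited by its signal, which is near background.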
